A study of Mus musculus with 6 samples.

Results

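The genes of 3 hyperpolarization-activated, cyclic nucleotide–gated (HCN) channel subunits, *Hcn2*, *Hcn3*, and *Hcn4*, and of the HCN auxiliary subunit TRIP8b, *Pex5l*, were taken by symbol from the deposited expression matrix. All 4 were among its 14477 genes. Hippocampal RNA had been sequenced as 1 library per mouse, all untreated and at baseline. Phf21bΔ4/Δ4 mice were replicates 2, 3, and 6 (n = 3), and the controls, Phf21b+/+, were replicates 5, 7, and 8 (n = 3). Phf21bΔ4/Δ4 mice carry a CRISPR/Cas9 deletion in exon 4 of *Phf21b*, which encodes an epigenetic reader, on both alleles and in every tissue. The line was kept on a C57BL/6J background and the study's default animals were young adult littermates of both sexes, but the sex and age of the 6 mice sequenced are not given in the labels. *Phf21b* reads, summed over the whole gene and so not limited to the deleted exon, remained in all Phf21bΔ4/Δ4 mice. *Phf21b* had 2.15, 3.57, and 3.87 CPM (read counts scaled to library size) in Phf21bΔ4/Δ4 replicates 2, 3, and 6, and 6.501, 5.23, and 6.47 CPM in Phf21b+/+ replicates 5, 7, and 8. All 3 Phf21bΔ4/Δ4 levels lay below all 3 Phf21b+/+ levels, a log2 change of -0.96 (standard error 0.26, FDR 0.141, limma), which did not pass the threshold on FDR given below.

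HCN channels open when a neuron hyperpolarizes and carry Ih, a mixed sodium and potassium current that sets the resting potential, shapes how dendrites sum synaptic input, and drives rhythmic firing. Cyclic AMP binds to the cytoplasmic end of HCN2 and HCN4 and eases their opening. HCN2 is widespread in the brain, HCN4 is the main pacemaker channel of the heart and is found in the brain above all in the thalamus and medial habenula, and HCN3 is the least studied subunit. TRIP8b, made mainly in neurons, takes HCN channels to the cell surface or back inside, depending on its splice form, and opposes the effect of cyclic AMP.

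TRIP8b holds the channels at 2 places, the cyclic nucleotide–binding domain and the extreme carboxyl end, where its tetratricopeptide repeats grip the last residues. The last 30 coding bases of each channel gene, up to but without the stop codon, are shown to compare this end between subunits, with the final 3 codons in capitals (GENCODE M21 transcripts, GRCm38).
Hcn2, chr10:79735508-79735537, plus strand: tctgcgcgctcgcgcctctctTCCAACTTG
Hcn3, chr3:89147602-89147631, minus strand: cccagaggtccccaaatttctGCCAACATG
Hcn4, chr9:58860731-58860760, plus strand: ccagtacgctccaaactgccgTCTAATTTA
The final 3 codons of *Hcn2* and *Hcn4* share 6 of 9 bases and encode the same 3 residues. Those of *Hcn3* share 7 of 9 bases with *Hcn2* and 4 of 9 with *Hcn4*, and only 1 of the 3 encoded residues is the same. Over all 30 bases the pairs were alike, with 16 shared by *Hcn2* and *Hcn4*, 15 by *Hcn2* and *Hcn3*, and 14 by *Hcn3* and *Hcn4*. The coding sequences run to 863 codons in *Hcn2*, 779 in *Hcn3*, and 1201 in *Hcn4*.

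Between the genotypes, *Pex5l* and *Hcn3* had higher and *Hcn4* had lower levels in Phf21bΔ4/Δ4 hippocampi, with no overlap between the 3 mice of one genotype and the 3 of the other, but none of the 4 genes passed the test across all genes. *Hcn2* overlapped between the genotypes. A gene was called at an FDR (Benjamini-Hochberg adjusted p over all 14477 genes, limma's moderated test on log2 CPM) under 0.1 and a fold change above 1.3. By this rule 0 of the 4 genes were called, beside 1.22% of all genes (0.553% called higher and 0.663% called lower in Phf21bΔ4/Δ4 mice). Of the 4 genes, 3 had an unadjusted p under 0.05, beside 23.6% of all genes, and limma voom on the recovered reads also called 0 of the 4. The groups did not overlap in 3 of the 4 genes, beside 31.0% of all genes (15.0% higher and 16.0% lower in Phf21bΔ4/Δ4 mice). For 1 gene alone, the 20 ways to split 6 mice into 3 and 3 allow no exact permutation p smaller than 0.1. In bulk tissue, fewer cells of a type and less RNA per cell cannot be told apart.

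**Figure D1:**
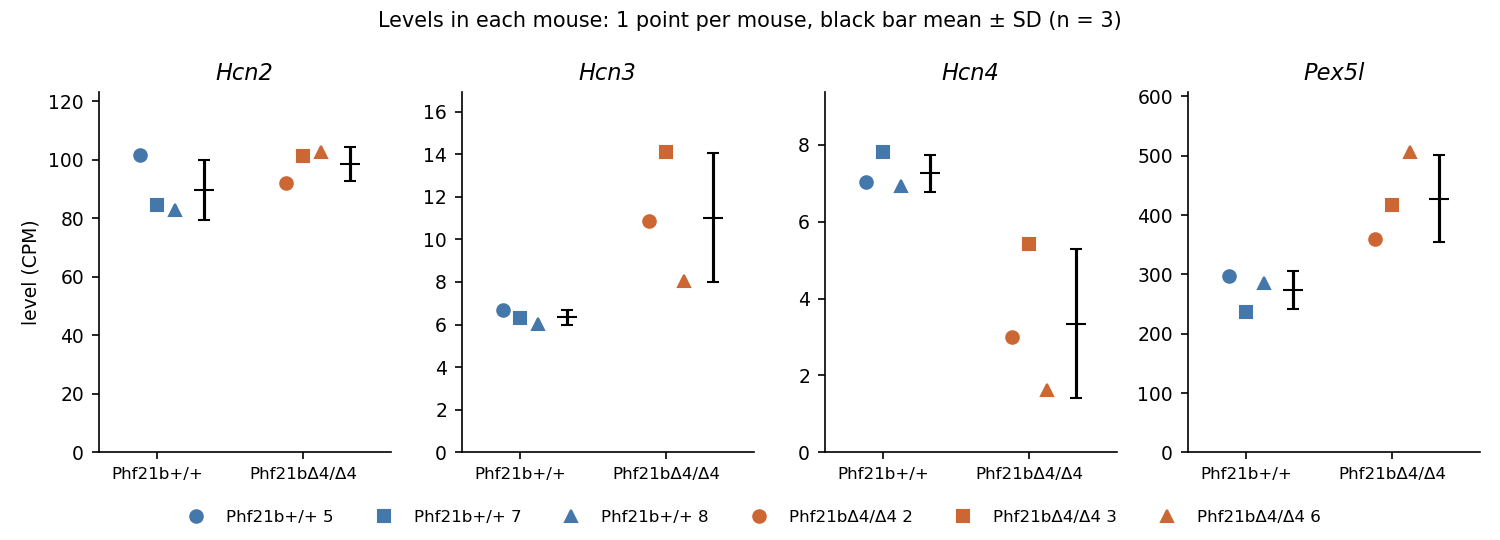
Level of each gene in CPM (vertical axis, starting at 0) in the 3 Phf21b+/+ mice (blue) and the 3 Phf21bΔ4/Δ4 mice (orange), 1 point per mouse, with the mean ± SD of each genotype as a black bar. The genotypes overlap for *Hcn2* and are apart for *Hcn3*, *Hcn4*, and *Pex5l*, and the *Hcn3* and *Hcn4* points lie far closer together in Phf21b+/+ mice than in Phf21bΔ4/Δ4 mice.

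*Hcn2* (ENSMUSG00000020331.9; GRCm38 chromosome 10, 79716634 to 79736108, plus strand) had the highest level per length among the 3 channel genes. *Hcn2* had 92.1, 101, and 103 CPM in Phf21bΔ4/Δ4 replicates 2, 3, and 6 and 102, 84.6, and 83.0 CPM in Phf21b+/+ replicates 5, 7, and 8. Phf21b+/+ replicate 5 reached the level of the Phf21bΔ4/Δ4 mice and the other two Phf21b+/+ mice were lower. The means were 98.7 ± 5.80 and 89.7 ± 10.3 CPM (SD, n = 3 each). The log2 change was 0.14 (standard error 0.10, FDR 0.398, limma) and its 95% interval ran from -0.10 to 0.38, on both sides of no difference.

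*Hcn3* (ENSMUSG00000028051.10) lies on chromosome 3 from 89146074 to 89160196 on the minus strand. *Hcn3* had 10.9, 14.1, and 8.05 CPM in Phf21bΔ4/Δ4 replicates 2, 3, and 6 and 6.69, 6.29, and 6.02 CPM in Phf21b+/+ replicates 5, 7, and 8. All 3 Phf21bΔ4/Δ4 mice were above all 3 Phf21b+/+ mice, with replicate 6 nearest to them. The means were 11.0 ± 3.03 and 6.33 ± 0.336 CPM (SD, n = 3 each). The log2 change was 0.76 (standard error 0.21, 95% interval 0.26 to 1.26), a 1.69-fold difference with an FDR of 0.145 (limma). The exact permutation p was 0.1, the smallest that 3 mice against 3 can give. The 3′ end of *Hcn3* overlaps 711 bp of the pyruvate kinase gene *Pklr* on the opposite strand, and *Pklr* is not in the matrix.

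*Hcn4* (ENSMUSG00000032338.9) lies on chromosome 9 from 58823412 to 58863175 on the plus strand. *Hcn4* had 2.99, 5.43, and 1.61 CPM in Phf21bΔ4/Δ4 replicates 2, 3, and 6 and 7.02, 7.81, and 6.92 CPM in Phf21b+/+ replicates 5, 7, and 8. All 3 Phf21bΔ4/Δ4 mice were below all 3 Phf21b+/+ mice, replicate 6 being the lowest and replicate 3 the nearest to Phf21b+/+. The means were 3.34 ± 1.93 and 7.25 ± 0.485 CPM (SD, n = 3 each). The log2 change was -1.28 (standard error 0.41, 95% interval -2.27 to -0.30), a 2.44-fold lower level with an FDR of 0.160 (limma) and an exact permutation p of 0.1.

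*Pex5l* (ENSMUSG00000027674.16), the TRIP8b gene, lies on chromosome 3 from 32949408 to 33143247 on the minus strand. *Pex5l* had 360, 417, and 506 CPM in Phf21bΔ4/Δ4 replicates 2, 3, and 6 and 297, 237, and 286 CPM in Phf21b+/+ replicates 5, 7, and 8. The genotypes did not overlap, and here replicate 6, the lowest Phf21bΔ4/Δ4 mouse for *Hcn3* and *Hcn4*, was the highest. The means were 428 ± 73.8 and 273 ± 31.9 CPM (SD, n = 3 each). The log2 change was 0.64 (standard error 0.15, 95% interval 0.28 to 0.997), a 1.56-fold difference with an FDR of 0.133 (limma) and an exact permutation p of 0.1. The annotation gives *Pex5l* 12 transcripts, 9 of them protein coding, and the deposited values are summed over the gene, so the splice forms that set where TRIP8b takes the channels were not measured. Of the 5 other genes annotated across parts of *Pex5l*, 3 RNA genes on the opposite strand and 2 of unsettled type on the same strand, 0 are in the matrix.

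*Hcn3* and *Hcn4* varied little among Phf21b+/+ mice and widely among Phf21bΔ4/Δ4 mice. The coefficient of variation of *Hcn4* was 57.8% in Phf21bΔ4/Δ4 and 6.69% in Phf21b+/+ mice, and that of *Hcn3* was 27.5% and 5.31%. On the log2 scale the SD of *Hcn4* was 9.24 times as large in Phf21bΔ4/Δ4 mice, and 2.56% of all genes had a larger ratio. For *Hcn3* the ratio of SDs was 5.31, with 6.94% of genes above it. *Pex5l*, at 1.42, was near the median ratio of all genes, 1.34, and *Hcn2*, at 0.537, was below it.

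The spread of *Hcn4* among Phf21bΔ4/Δ4 mice was larger than counting error. *Hcn4* was read 71, 114, and 37 times in replicates 2, 3, and 6, and the exact Poisson 95% intervals of these counts, 2.34 to 3.78, 4.48 to 6.52, and 1.13 to 2.22 CPM, did not overlap. In the Phf21b+/+ mice, with 148, 185, and 154 reads, the intervals of all 3 overlapped. The same held for *Hcn3*, with 258, 296, and 185 reads in Phf21bΔ4/Δ4 replicates 2, 3, and 6 and 141, 149, and 134 in the Phf21b+/+ mice. The Poisson intervals of *Pex5l* in the 3 Phf21bΔ4/Δ4 mice did not overlap either. Unlike for *Hcn3* and *Hcn4*, those in Phf21b+/+ mice did not all overlap. Replicate 7, at 231 to 244 CPM, lay below replicates 5 (290 to 305) and 8 (279 to 293). *Hcn2* was read between 1846 and 2360 times and *Pex5l* between 5621 and 11640 times per mouse. These intervals cover counting error only.

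Levels of different genes were compared per length, as CPM per kb of the exons of a gene (3195 bp for *Hcn2*, 4154 bp for *Hcn3*, 6118 bp for *Hcn4*, and 8846 bp for *Pex5l*). In Phf21b+/+ mice the order was *Pex5l* (30.9 ± 3.61 CPM per kb), *Hcn2* (28.1 ± 3.21), *Hcn3* (1.52 ± 0.0810), and *Hcn4* (1.19 ± 0.0792; SD, n = 3). *Pex5l* and *Hcn2* did not differ beyond their spread, with a ratio between 1.01 and 1.24 in the 3 Phf21b+/+ mice. In Phf21bΔ4/Δ4 mice the order was the same, at 48.4 ± 8.34, 30.9 ± 1.81, 2.65 ± 0.729, and 0.547 ± 0.316 CPM per kb (SD, n = 3). *Pex5l* is the gene with the most transcripts, and its exon length counts exons of every transcript, so its level per length may be understated.

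**Figure D2:**
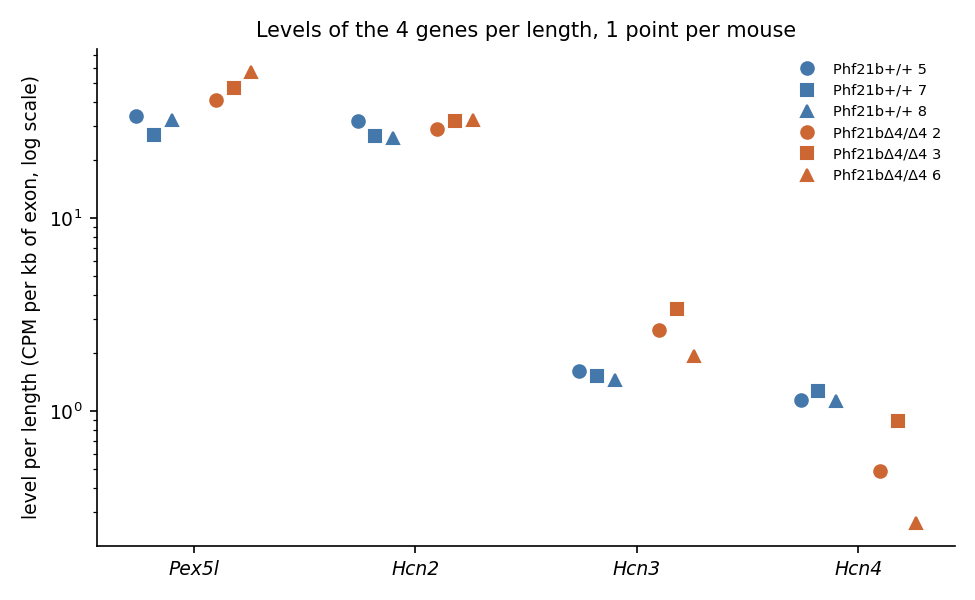
Level per length (CPM per kb of exon, log scale) of the 4 genes, 1 point per mouse, Phf21b+/+ in blue and Phf21bΔ4/Δ4 in orange. *Pex5l* and *Hcn2* lie together in Phf21b+/+ mice, near 30.9 and 28.1 CPM per kb, and *Hcn3* and *Hcn4* lie close together in Phf21b+/+ mice and far apart in Phf21bΔ4/Δ4 mice.

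The ratio of *Hcn4* to *Hcn3* per length was 0.713, 0.843, and 0.780 in Phf21b+/+ replicates 5, 7, and 8 and 0.187, 0.261, and 0.136 in Phf21bΔ4/Δ4 replicates 2, 3, and 6. In every Phf21bΔ4/Δ4 mouse *Hcn3* thus exceeded *Hcn4* by more than in any Phf21b+/+ mouse, a log2 difference in the ratio of -2.05. Since *Hcn3* was higher and *Hcn4* lower in every Phf21bΔ4/Δ4 mouse, this ratio had to separate the genotypes, and it restates the levels of the single genes. The ratio of *Pex5l* to *Hcn2* was 1.41, 1.49, and 1.78 in Phf21bΔ4/Δ4 replicates 2, 3, and 6 and 1.06, 1.01, and 1.24 in Phf21b+/+ replicates 5, 7, and 8. TRIP8b transcript per *Hcn2* transcript was thus higher in each Phf21bΔ4/Δ4 mouse, by 0.50 on the log2 scale on average. The ratio of *Pex5l* to *Hcn3*, both of them higher in Phf21bΔ4/Δ4 mice, overlapped between the genotypes, at 13.9 to 29.5 in Phf21bΔ4/Δ4 and 17.7 to 22.3 in Phf21b+/+ mice. The ratios share genes and were computed after the single values had been seen.

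Genes related to HCN channels or TRIP8b by family, partner, or pathway were grouped into 5 lists with 64 genes in the matrix. Of the 64, 1 was called (beside 1.22% of all genes). The called gene was *Kcnh8*, which encodes a voltage-gated potassium channel of the ether-à-go-go group. Like the HCN subunits, these channels carry a domain folded like a cyclic nucleotide–binding domain. *Kcnh8* fell from 4.31 ± 0.784 CPM in controls to 1.096 ± 0.447 CPM with the deletion (SD, n = 3 each), a log2 change of -2.05 (standard error 0.36, FDR 0.089, limma). It was not called after quantile normalization, with 1 prior variance for all genes, with a filter on low genes, or in any of the 5 fits that left out a mouse other than Phf21bΔ4/Δ4 replicate 6.

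**Figure D3:**
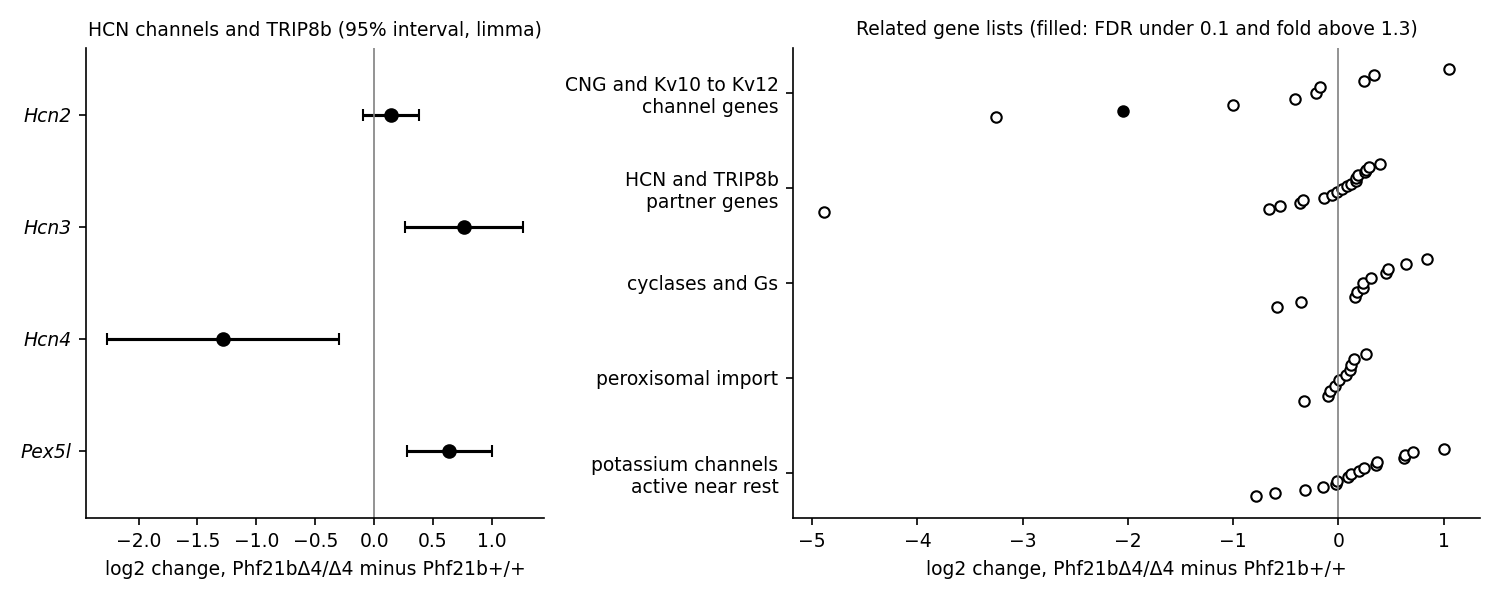
Log2 change (Phf21bΔ4/Δ4 minus Phf21b+/+, horizontal axis) of the 4 genes with limma's 95% interval (left), and of the members of the 5 related lists, 1 circle per gene (right), filled where the gene was called. The interval of *Hcn2* crosses 0, those of the other 3 do not, and the single filled circle is *Kcnh8* at -2.05.

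Among the 9 ether-à-go-go and cyclic nucleotide–gated channel genes listed, 0 were called higher and 1 lower, with a median log2 change of -0.21, beside -0.02 over all genes. *Kcnh7* and *Kcnh3*, both potassium channels of the same group, had the highest changes, 1.05 (FDR 0.145) and 0.33 (FDR 0.201). *Cngb1*, a subunit of the cyclic nucleotide–gated channel of rods and olfactory neurons, had the lowest, -3.26 (FDR 0.167), from 1.97 ± 0.778 to 0.421 ± 0.579 CPM (SD, n = 3 each). In this list 2 genes were higher and 3 lower in Phf21bΔ4/Δ4 mice with no overlap between the genotypes, beside 15.0% higher and 16.0% lower among all genes. An unadjusted p under 0.05 (limma) was reached by 2 higher and 3 lower genes, beside 23.6% of all genes.

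Among 18 genes whose products bind, move, modify, or repress HCN channels or bind TRIP8b, 0 were called by limma and 4 had an unadjusted p under 0.05. Among all genes, 23.6% had an unadjusted p under 0.05. The median log2 change of the 18 was 0.06. *Rab8b*, the small GTPase after which TRIP8b is named, had the highest change, 0.39 (standard error 0.07), and with an FDR of 0.101 lay just beyond the threshold. *Rab8b* had a mean of 98.4 ± 4.04 CPM with the deletion and 74.9 ± 4.05 CPM without (SD, n = 3 each). *Grasp*, which encodes the scaffold protein tamalin, was next at 0.29 (FDR 0.305). The lowest were *Mrvi1* (-0.66, FDR 0.489), whose product regulates HCN4, and the channel accessory subunit *Kcne2* (-4.88, FDR 0.425). *Kcne2* is also made in choroid plexus, whose 8 markers summed to 15723 CPM in Phf21b+/+ replicate 7, 977 in replicate 8, and 28.7 in replicate 5, against 22.9 to 80.7 in Phf21bΔ4/Δ4 mice. The part of these cells in the *Kcne2* value was not tested.

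Among 11 genes for adenylyl cyclases, which make cyclic AMP, and for the stimulatory G protein subunits that drive them, 0 were called by limma and 5 had an unadjusted p under 0.05. Such a p was found in 23.6% of all genes. Of the 11, 9 had a positive change, beside 6884 of all 14477 genes, and the median was 0.24. The cyclase genes *Adcy3* (0.84, FDR 0.144) and *Adcy5* (0.65, FDR 0.142) had the highest changes, and both were above all Phf21b+/+ levels in every Phf21bΔ4/Δ4 mouse. In this list 3 genes were higher and 1 lower with no overlap between the genotypes, beside 15.0% higher and 16.0% lower among all genes. The G protein gene *Gnal* had a log2 change of -0.36 (FDR 0.134) and the cyclase gene *Adcy1* one of -0.58 (FDR 0.407), with means of 1471 ± 877 CPM with the deletion and 1938 ± 110 CPM without (SD, n = 3 each).

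TRIP8b is a relative of PEX5, the receptor that brings enzymes into peroxisomes by gripping their carboxyl ends. Among 10 genes of peroxisomal import, 0 were called by limma and 2 had an unadjusted p under 0.05, beside 23.6% of all genes. The median log2 change of the 10 was 0.04. *Pex5* itself had the highest change, 0.26 (standard error 0.09, FDR 0.164), which is smaller than the 0.64 of *Pex5l*, and *Pex2*, a ubiquitin ligase of the peroxisome membrane, had the lowest, -0.32 (FDR 0.179). *Pex14*, which encodes a docking protein of the peroxisome membrane, had a log2 change of 0.15 (FDR 0.413).

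Among 16 potassium channel genes active near the resting potential, where Ih flows, 0 were called by limma. Of the 16, 4 had an unadjusted p under 0.05, beside 23.6% of all genes, and the median log2 change was 0.16. *Kcnq5* had the highest change, 1.003 (FDR 0.155), and *Kcnk9*, a leak channel, was next at 0.71 (FDR 0.265). The lowest were the inward rectifier *Kcnj2* (-0.78, FDR 0.374) and the leak channel *Kcnk1* (-0.60, FDR 0.199).

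The 3 genes whose log2 CPM was most like that of each gene over the 6 mice were sought among 12965 other genes whose log2 CPM averaged 1 or more. Pearson's r is given as a description, since the 6 mice fall into 2 genotypes. For *Pex5l* they were *Nmt2* (r = 0.999), *Btbd6* (0.995), and *Trpc5* (0.993), the last a cation channel gene. For *Hcn3* they were *Pcdhb14* (0.996), *Atf2* (0.995), and *Tceal5* (0.992). For *Hcn4* they were *Rmdn2* (0.987), *Id2* (0.979), and the orphan receptor gene *Gpr139* (0.978), and for *Hcn2* they were *Abcc3* (0.976), *Thtpa* (0.973), and *Cstf1* (0.972). Of these 12 genes, 0 were called by limma, and *Gpr139*, at -2.31 (FDR 0.134), had the largest change.

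Among the fits that left out a mouse, only the one without Phf21bΔ4/Δ4 replicate 6 called *Hcn3*, *Hcn4*, or *Pex5l*. Without replicate 6, *Hcn3* (log2 change 0.97, FDR 0.0254), *Hcn4* (-0.84, FDR 0.0921), and *Pex5l* (0.51, FDR 0.0574) all passed both thresholds by limma, and so did 2830 of all genes, or 19.5%. When each mouse was weighted by how closely its genes followed its genotype's means (limma's arrayWeights), the same 3 genes passed, beside 24.5% of all genes. Replicate 6 had the lowest weight, 0.343, and Phf21bΔ4/Δ4 replicate 3 (0.554) and Phf21b+/+ replicate 7 (0.553) were also low. Phf21b+/+ replicate 8 had the highest, 4.63, so this fit leaned most on 1 control mouse. *Hcn2* passed in neither. The directions of all 4 genes were kept in the 12 alternative settings that can move a log2 change.

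**Figure D4:**
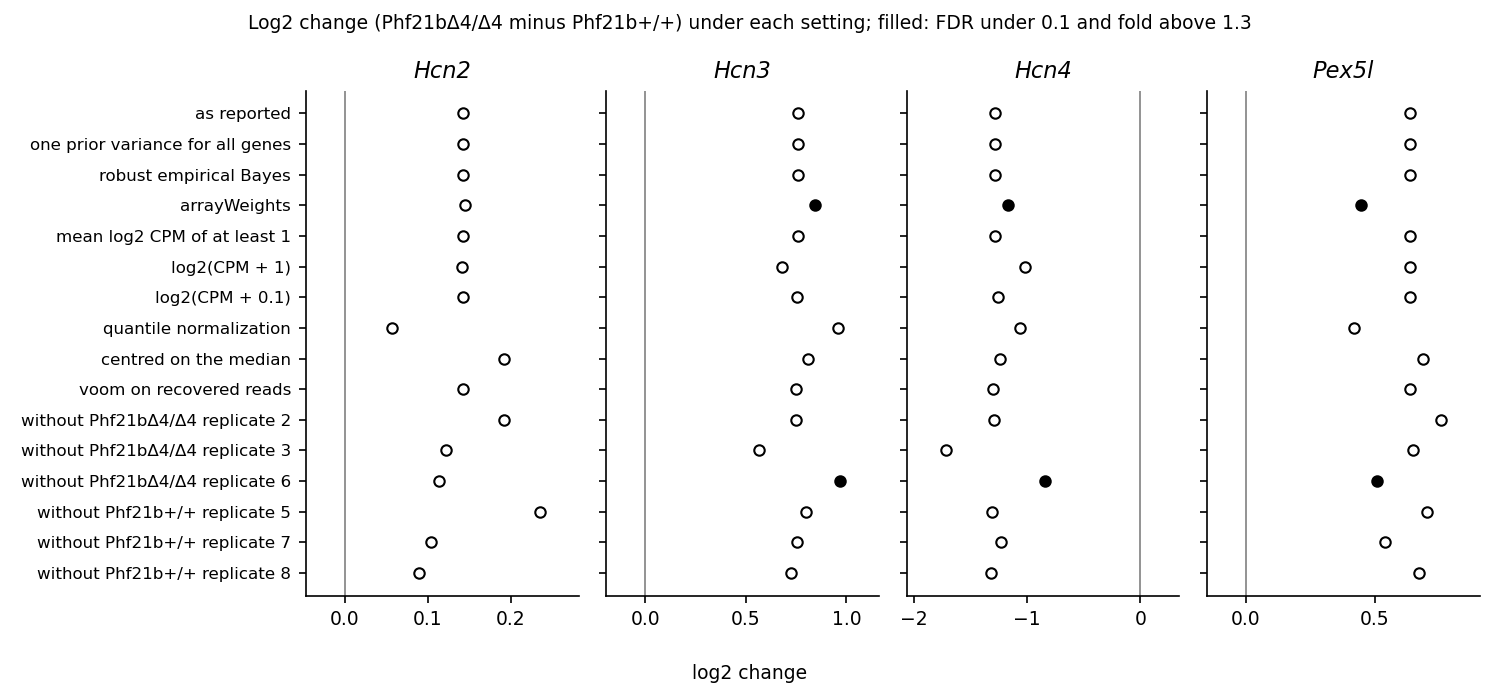
Log2 change of each gene (horizontal axis, Phf21bΔ4/Δ4 minus Phf21b+/+, scaled per panel) as reported and under 15 alternatives (rows), filled where the gene passed an FDR of 0.1 and a fold change of 1.3. *Hcn3*, *Hcn4*, and *Pex5l* are filled under arrayWeights and without Phf21bΔ4/Δ4 replicate 6, and *Hcn2* is nowhere filled.

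Marker genes of several brain regions differed between the genotypes beside these genes. The marker lists were chosen with earlier results of these data known, so their counts are a description and not a test. The 8 markers of hippocampal excitatory neurons, the labelled tissue, summed to 3275 to 3856 CPM in Phf21bΔ4/Δ4 and 2491 to 3483 CPM in Phf21b+/+ mice, and 0 were called by limma, with 2 at an unadjusted p under 0.05, both higher in Phf21bΔ4/Δ4 mice (*Grin1*, log2 change 0.59, and *Slc17a7*, 0.53). Among all genes, 23.6% had an unadjusted p under 0.05 (limma). The medial habenula lies outside the hippocampus and is rich in HCN4. Its 17 markers were each lower in all 3 Phf21bΔ4/Δ4 mice than in any Phf21b+/+ mouse, beside 16.0% of all genes. Of the 17, 13 were called lower, beside 0.663% of all genes, and the 17 summed to 118 to 171 CPM against 548 to 699 CPM. Several of them, *Chat* and *Irx2* included, are in the study's own list of changed genes from these data. Defining habenula markers were at 0 reads in some Phf21bΔ4/Δ4 mice: *Chat* and *Irx2* in replicates 3 and 6, *Slc18a3* in replicates 2 and 3, and *Pou4f1* in replicate 6. Of 15 thalamic markers 3 were called lower and 0 higher, beside 0.663% and 0.553% of all genes. The change was negative in 13 and positive in 2 of these markers. Of the 15, 6 were lower in Phf21bΔ4/Δ4 mice with no overlap between the genotypes, beside 16.0% of all genes. The thalamic sums were 346, 451, and 441 CPM in Phf21bΔ4/Δ4 replicates 2, 3, and 6. In Phf21b+/+ replicates 5, 7, and 8 they were 966, 872, and 642 CPM. The genotypes were thus apart in the habenula and thalamic sums as they were in *Hcn4*, though not in most single thalamic markers. Among Phf21bΔ4/Δ4 replicates 2, 3, and 6 the habenula sums were 171, 164, and 118 CPM.

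Lists of hippocampal cell types were also apart. Among all 14477 genes, 6884 had a positive and 7593 a negative change. Of all genes, 0.553% were called higher and 0.663% lower in Phf21bΔ4/Δ4 mice, and 23.6% had an unadjusted p under 0.05 (limma). The 9 CA1 markers all had positive changes, 3 of them called, and summed to 1425, 1573, and 1140 CPM in Phf21bΔ4/Δ4 replicates 2, 3, and 6 against 456 to 552 CPM in Phf21b+/+ mice. The 10 dentate granule cell markers all had negative changes, 2 of them called, with 275, 237, and 720 CPM in Phf21bΔ4/Δ4 replicates 2, 3, and 6 against 775 to 885 CPM, so that replicate 6 was near the Phf21b+/+ mice. The 11 interneuron markers all had positive changes, 1 of them called, and summed to 1085 to 1291 CPM against 732 to 852 CPM. The 8 endothelial markers summed to 241 to 352 CPM against 164 to 221 CPM, 0 of them called by limma and 4 at an unadjusted p under 0.05. The summed levels of the astrocyte, oligodendrocyte, microglia, and CA2 and CA3 lists overlapped between the genotypes, with 1 of 9 astrocyte markers called lower and 0 of the 10, 9, and 11 markers of the other lists called by limma (2, 1, and 3 at an unadjusted p under 0.05). The change was negative in 8 and positive in 3 of the 11 CA2 and CA3 markers, with a median log2 change of -0.66. Of these 11, 3 were lower and 0 higher with no overlap between the genotypes, beside 16.0% and 15.0% of all genes. Of the 8 choroid plexus markers 1 was called lower. The part of any of these cell types in the levels of *Hcn3*, *Hcn4*, and *Pex5l* was not tested.

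**Figure D5:**
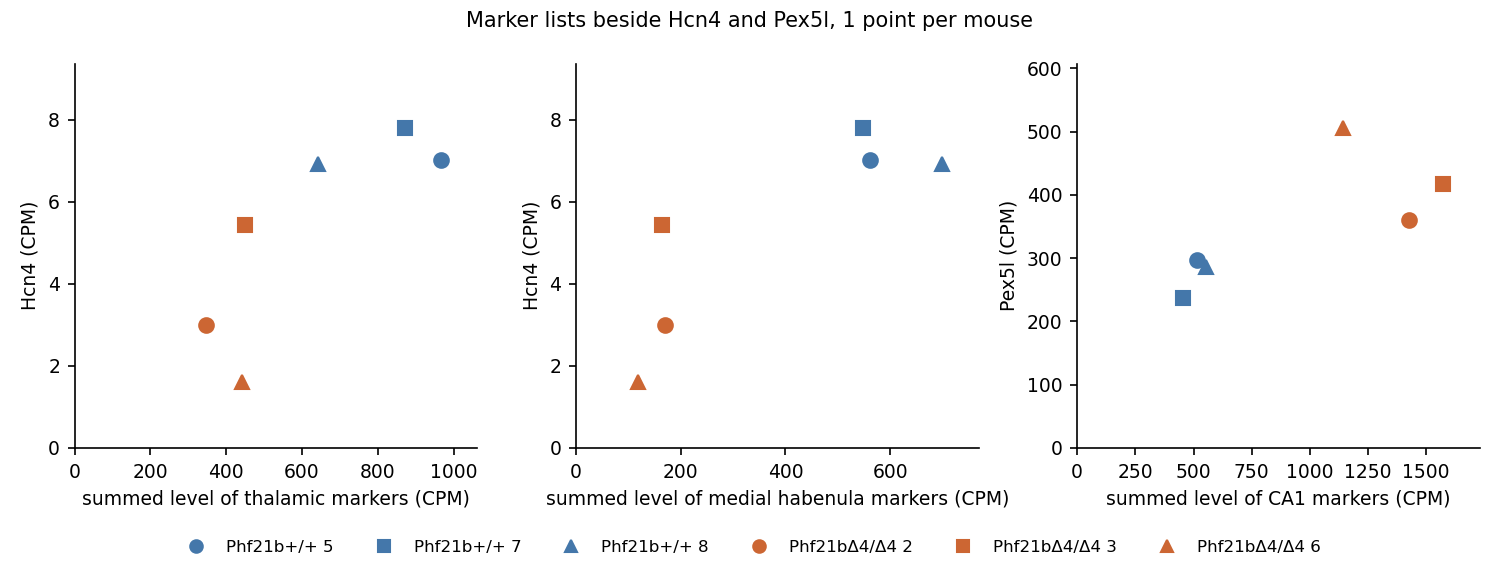
*Hcn4* level beside the summed level of 15 thalamic markers (left) and of 17 medial habenula markers (middle), and *Pex5l* level beside the summed level of 9 CA1 markers (right), all in CPM, 1 point per mouse. The genotypes are apart on both axes in each panel, with *Hcn4* from 1.61 to 5.43 CPM in Phf21bΔ4/Δ4 and from 6.92 to 7.81 CPM in Phf21b+/+ mice. Among Phf21bΔ4/Δ4 mice, replicate 6 has the lowest CA1 sum but the highest *Pex5l*. Replicate 6 also has the lowest habenula sum and the lowest *Hcn4*, while the thalamic sum is lowest in replicate 2.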

How the data were processed

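Total RNA from 6 hippocampi was sequenced after ribosomal RNA removal. Per the submitters' processing notes and the study's methods, Trimmomatic 0.39 removed adaptors, STAR 2.7.3a mapped to GRCm38, and featureCounts (Subread 1.6.4) counted per gene. The authors dropped genes of low count and scaled the rest to library size with edgeR. What was deposited is 1 log2 CPM value per gene and mouse. Whether counting used strand is not given in the sources used here. Low values rose in whole-read steps above the value of 0 reads, so reads were recovered (100.0% whole within 0.1). Between 20495605 and 24881257 reads per mouse lay on listed genes. Genotypes, assigned by title, were compared on log2 CPM with limma 3.58.1 (lmFit, eBayes with a mean-dependent prior variance, no covariate) in R 4.3.3, tested on simulated data. P-values were Benjamini-Hochberg adjusted over all 14477 genes. The p-values measure the spread between these mice, whose litters are not stated. Exon lengths come from GENCODE M21, a different release from the authors'. The members and gene lists were chosen with earlier results of these data known. Named are the 4 members, called list genes, the 2 highest and 2 lowest of each list, and the 3 most similar genes per member. Some genes that belong to the HCN family or that this rule names are not reported here. The alternatives are given in the closing section.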

Additional observations from a re-analysis of the deposited data

How the results depend on the processing

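The 12 alternatives that can move a log2 change kept the direction of *Hcn2*, *Hcn3*, *Hcn4*, and *Pex5l*, and the other 5 alter only the variance, the genes tested, or the threshold. With arrayWeights, *Hcn3* (0.84), *Hcn4* (-1.17), and *Pex5l* (0.45) passed the thresholds (FDR 0.0125, 0.0190, and 0.0265, limma), as they did without Phf21bΔ4/Δ4 replicate 6. Leaving out 1 mouse at a time gave log2 changes from 0.09 to 0.23 for *Hcn2*, 0.56 to 0.97 for *Hcn3*, -1.72 to -0.84 for *Hcn4*, and 0.51 to 0.76 for *Pex5l*. Called genes numbered 176 as reported, 75 with 1 prior variance for all genes, 3549 with arrayWeights, 101 after a filter on low genes (log2 CPM averaging 1 or more), 25 at an FDR under 0.05, and from 9 (without Phf21b+/+ replicate 8) to 2830 (without Phf21bΔ4/Δ4 replicate 6) with each mouse left out. The split was 80 higher and 96 lower as reported, 13 and 62 with 1 prior variance, 55 and 46 with the filter on low genes, 61 and 95 after quantile normalization, and 104 and 94 after centring, which moved the median log2 change of all genes from -0.02 to 0.03. Of the 64 genes in the 5 related lists, 1 was called as reported, 0 with 1 prior variance, with the filter, or at an FDR under 0.05, 2 with log2(CPM + 1), log2(CPM + 0.1), or centring, 21 with arrayWeights, and from 0 to 18 with each mouse left out. Leaving out a mouse leaves 2 against 3. The causes were not tested. No paired analysis was possible because the labels give no litters and match no Phf21bΔ4/Δ4 mouse to a Phf21b+/+ mouse. The depth limits *Hcn4* most, with 37 reads in Phf21bΔ4/Δ4 replicate 6.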
